A study of Mus musculus with 6 samples.

Results

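The proteasome subunit genes were followed in cultured mouse cerebral cortex after terahertz irradiation, on all array probes whose gene name is a Psma, Psmb, Psmc, Psmd or Psme symbol with a number. Psmb8 and Psmb9, catalytic subunits that interferon induces, were left out by this rule, and Psme2 is not analysed here. The rule uses no measured value and found 76 of 56605 probes, which stand for 40 genes: 8 core alpha, 9 core beta, 6 ATPase, 14 non-ATPase regulatory and 3 activator genes. Of the 76 probes, 71 passed the filter on dim signal, which asks that the scanner software calls a probe well above background on 3 or more of the 6 arrays, and they were tested among 40552 probes in all. They cover 39 genes of 26157. Psmb11, a core subunit of the thymus, had its only probe well above background on none of the 6 arrays, and 1 probe each of Psma8, Psmd3, Psmd11 and Psmd14 was also too dim to be tested.

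The study compared 3 irradiated cultures with 3 control cultures. All 6 were primary cortical cultures from C57/B6 embryos at embryonic day 16, grown in Neurobasal medium with B27 plus and collected at day 12 in vitro. The irradiated cultures received 3.1 THz, a band between microwaves and infrared light, in daily sessions of 3 hours from day 5 to day 9 in vitro, and the controls carried no irradiation label. The labels number the cultures 1 to 3 in each group without saying whether they came from separate dissections, so the p-values cover only how far these samples differ among themselves, and part of that can be technical. RNA was labelled with Cy3 and each sample was read on its own 1-colour Agilent array. The number of arrays limits the precision of every value below.

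The proteasome is the large protease that degrades proteins tagged with ubiquitin. Its barrel-shaped core is built of alpha rings that gate the entry and beta rings that hold the cutting sites, and a regulatory particle with an ATPase ring and a lid binds, unfolds and feeds in the tagged protein, while activators open the core in other ways. In neurons the proteasome is known for the turnover of synaptic proteins, and its subunit genes are known in mammals to be induced together by the transcription factor Nfe2l1 when proteasome activity is short.

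The probes that carry the results are 60-base oligonucleotides. Where a gene had several, the sign of the difference often went with their place along the gene, and this place went with their brightness. They are given 5′ to 3′ in the sense of the transcript, in lower case, with coordinates on mm9, the build named in the file headers. The files do not say whether a probe lies in coding or untranslated sequence, and no annotation of mm9 was used here. The probes of Psmc3, an ATPase subunit, and of Psmd6, a lid subunit, are printed as examples of genes with 3 probes in a row. Psma3, Psma4, Psmd1, Psmd4 and Psme4 also have 3 or more. Under the percentile scaling used below, only Psmc3 and Psmd6 of these genes had differences (irradiated minus control) that fell at every step downstream. From upstream to downstream the differences were 0.03, -0.07, -0.04 and -0.22 in Psma4 and 0.18, -0.20, -0.28 and -0.12 in Psmd1. Under quantile normalization the differences of Psmc3 did not fall at every step. Being free of stop codons in at least 1 reading frame was required of each whole 60-base probe printed, so it does not show coding sequence:
Psmc3 upstream probe, chr2:90896846-90896905, plus strand: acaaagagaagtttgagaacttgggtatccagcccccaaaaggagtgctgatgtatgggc
Psmc3 middle probe, chr2:90898252-90898311, plus strand: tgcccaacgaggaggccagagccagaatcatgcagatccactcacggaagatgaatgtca
Psmd6 upstream probe, chr14:14948919-14948978, minus strand: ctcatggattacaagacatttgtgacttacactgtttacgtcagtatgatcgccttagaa
Psmd6 middle probe, chr14:14946703-14946762, minus strand: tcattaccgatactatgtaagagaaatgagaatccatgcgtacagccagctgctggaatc
The most downstream probes of the same genes hold AATAAA, the signal after which a transcript is usually cut and given its poly(A) tail. It is in capitals in 30 of their bases, and the downstream probe of Psmd13, a lid subunit, is shown beside them:
Psmc3 downstream probe, chr2:90899526-90899585, plus strand: gctaaagttgatAATAAAaggtgttttctg
Psmd6 downstream probe, chr14:14944699-14944758, minus strand: tcaacagcatcaAATAAAtatgtcatttgt
Psmd13 downstream probe, chr7:148084481-148084540, plus strand: gagtgctgctctAATAAAtgccttggcatt
The catalytic subunit Psmb5 had 1 probe. The activator Psme3 had its lowest difference at a probe rich in TG, shown in capitals over 30 of its bases:
Psmb5 probe, chr14:55233161-55233220, minus strand: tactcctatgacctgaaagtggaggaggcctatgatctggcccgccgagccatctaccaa
Psme3 downstream probe, chr11:101184289-101184348, plus strand: TGcacaTGTGTGTGTGTGttcgTGTGTGTG

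Control 1 stood apart from the other arrays. On the first principal component, which held 55.2% of the variance, the other 5 arrays lay between -62.0 and -11.5 and control 1 at 148. The 75th percentile of signal was 841, 892 and 635 on irradiated arrays 1 to 3, against 320, 465 and 708 on control arrays 1 to 3. Spots that the scanner software called well above background made up 74.7%, 73.8% and 72.9% of the irradiated arrays, against 64.9%, 69.9% and 72.6% of the controls. Per the file headers, the fit of the multiplicative spatial trend was also 0 on control 1 alone, so it is not known whether that correction was made there. Values without control 1 are given beside many of the named differences, though not beside all of those that it moved. All 8 neuronal markers, such as Rbfox3 and Tubb3, were well above background on all arrays, and so were all 10 microglial, all 6 astrocyte and 5 of 6 oligodendrocyte markers, so the cultures labelled as neurons also held glial transcripts. Of the 4 endothelial markers, 2, Pecam1 and Kdr, were well above background on all arrays, while Cldn5 and Tek were so on no array. Summed neuronal marker signal was 275, 304 and 377 times the 75th percentile on irradiated arrays 1 to 3, against 405, 377 and 377 on control arrays 1 to 3. Summed microglial marker signal was 40.2, 14.2 and 13.5 on the irradiated arrays, against 34.8, 14.2 and 10.9 on the controls, so the number-1 array was the highest in each group.

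No proteasome probe passed the test. At the brightest probe of each gene, 35 of the 39 subunit genes lay lower and 4 higher in irradiated cultures when each array was scaled to its 75th percentile, but under quantile normalization 18 lay lower and 21 higher. The median difference, irradiated minus control, was -0.24 on the log2 scale under the first scaling and 0.04 under the second. Over all 26157 genes the medians were -0.13 and -0.05, and the share of genes lower in irradiated cultures was 65.9% and 56.7%. Among the subunit genes the differences ran from -0.82 for Psme3 to 0.24 for Psmb2. Differences below are on the log2 scale and under the 75th percentile scaling unless quantile normalization is named. In such bulk cultures, fewer cells of a type and less RNA per cell cannot be told apart.

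**Figure D1:**
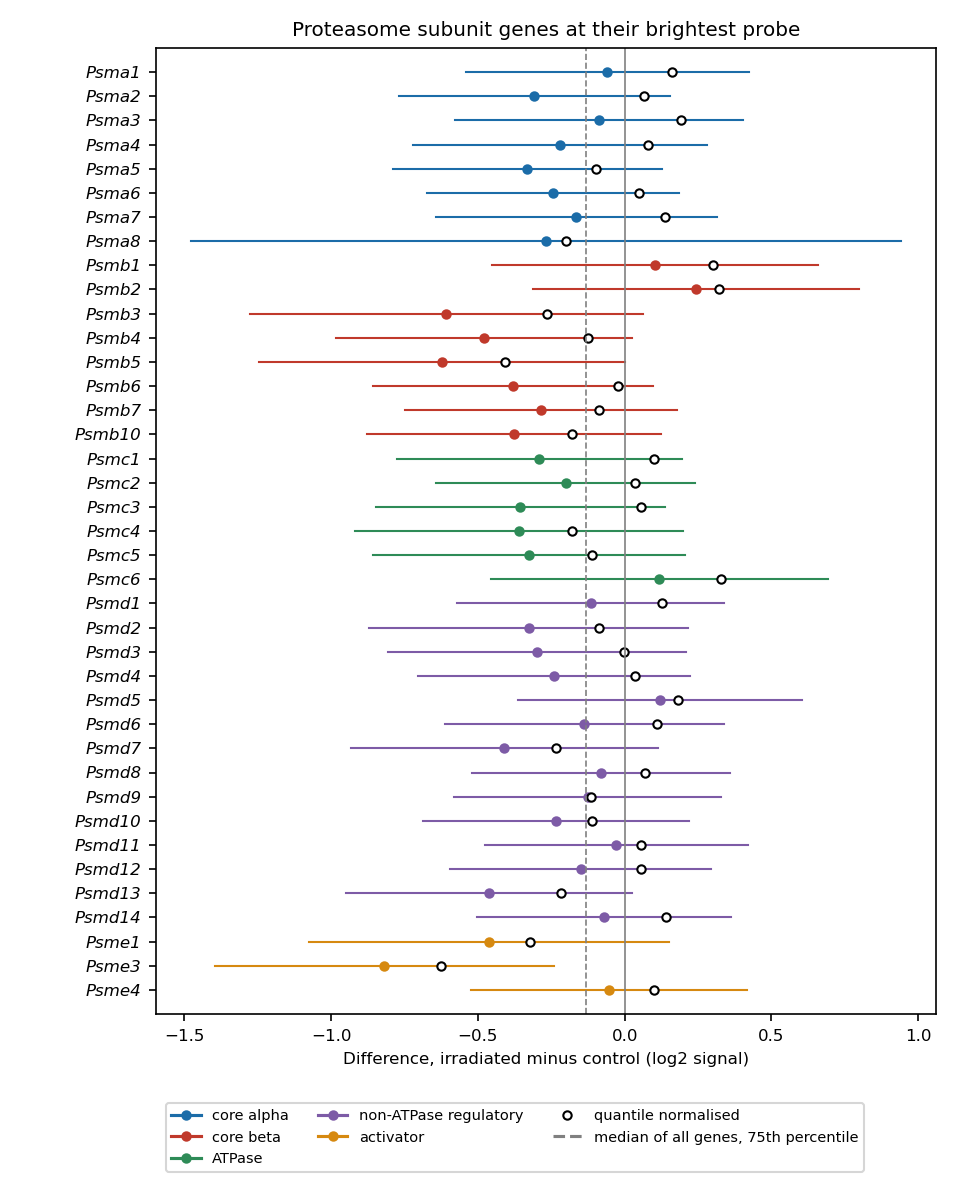
Difference in log2 signal, irradiated minus control, at the brightest probe of each of 39 proteasome subunit genes. Filled points with bars are the 75th percentile scaling with the 95% limma interval, open points are the same difference under quantile normalization, and the dashed line is the median of all genes at -0.13. The filled points of 35 genes lie left of 0, while the open points of 18 do, the bar of Psme3 lies clear of 0, and that of Psmb5 ends at it.

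Limma with Benjamini-Hochberg adjustment over 40552 probes called 0 of 71 subunit probes at an adjusted p under 0.05, as it called 0.0% of all probes, and the lowest adjusted p among them was 0.519. Under quantile normalization it called 0 of the 71 as well, where 0.00986% of all probes were called. At an unadjusted p under 0.05, limma put 1 subunit probe higher and 3 lower in irradiated cultures, where 4.02% and 5.01% of all probes met the same bound. The higher one was the upstream probe of Psmc2, and the lower ones were single probes of Psmb5, Psmb6 and Psme3. That count of 4 was 9 without control 3 and 1 without control 1, without irradiated 1 or without irradiated 2, and 2 under quantile normalization or with the shared array number as a block. Of the 71 probes, 46 lay below 0, as did 56.0% of all probes, and in 19 all irradiated values were below all controls, as in 9.77% of all probes. Under quantile normalization 24 of the 71 lay below 0. Over the 39 genes at their brightest probe, the irradiated values were all below the controls for 16 genes and all above for none, where 12.2% and 3.85% of all genes had that order. Irradiated array 1 was the lowest of the 6 for 21 of the 39 genes, and the highest was control 1 for 15, control 2 for 11 and control 3 for 10. Under quantile normalization irradiated 1 was the lowest for 8 genes, and control 1 was the lowest for 18 and the highest for 12. The median subunit gene, set against its own mean over the arrays, was at -0.20, -0.16 and -0.01 on irradiated arrays 1 to 3 and at 0.10, 0.13 and 0.07 on control arrays 1 to 3. The same medians over all genes were -0.13, -0.10 and 0.02 on the irradiated arrays and 0.10, 0.13 and 0.01 on the controls. Irradiated 1 and 2, which had the lowest medians of the subunits, also had the lowest sums of neuronal markers, whose part in the result was not tested.

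The 8 core alpha genes form the outer rings of the barrel, and at their brightest probe all 8 differences were below 0, with a median of -0.23, though 6 of them were above 0 under quantile normalization, with a median of 0.07. The irradiated values of Psma2, Psma5 and Psma6 were all below the controls, and no core alpha gene passed the test. Psma5 measured 4.60, 4.49 and 4.65 log2 units above the 75th percentile on irradiated arrays 1 to 3, against 5.08, 4.85 and 4.81 on control arrays 1 to 3. Every irradiated value of Psma5 was below every control value, and the difference was -0.33 with an SE of 0.20 (adjusted p = 0.546), or -0.10 under quantile normalization. Psma6 had the tightest groups of the core alpha genes, with 5.40 ± 0.02 in irradiated and 5.64 ± 0.03 in control cultures (SD, n = 3 each), yet its difference of -0.24 turned to 0.05 under quantile normalization.

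Psma3, another alpha subunit, had 3 probes whose differences were 0.65, -0.13 and -0.09 in order from upstream to downstream. At the upstream one it measured -1.12, -1.43 and -1.22 in irradiated cultures, against -2.73, -1.03 and -1.95 in controls. The irradiated arrays lay close together and control 2 was the highest of all 6, so the groups overlapped, and without control 1 the difference was 0.23. The difference at the brightest, most downstream probe was 0.19 under quantile normalization. Psma8, an alpha subunit of the testis, was near the detection limit, with its tested probe well above background on 2 irradiated arrays and 1 control array. Its values of -4.94, -5.59 and -6.35 in irradiated and -4.34, -5.77 and -5.98 in control cultures overlapped, and its difference of -0.27 was 0.24 without control 1.

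The 8 tested core beta genes had a median difference of -0.38, with 6 below 0 and 2 above, and the same 6 to 2 split under quantile normalization, where the median was -0.11. This was the group of core genes in which the scaling did not turn the median. The standard catalytic subunits are Psmb5, which cuts after hydrophobic residues, Psmb6, which cuts after acidic ones, and Psmb7, which cuts after basic ones, while Psmb10 replaces Psmb7 in the interferon-induced form.

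Psmb5 measured 3.95, 4.02 and 4.49 on irradiated arrays 1 to 3, against 5.11, 4.80 and 4.41 on control arrays 1 to 3. Irradiated 1 and 2 were below every control, and irradiated 3 lay just above control 3, so the groups overlapped. The difference was -0.62 with an SE of 0.27 (adjusted p = 0.519). It was -0.41 under quantile normalization and -0.46 without control 1. Psmb6 measured 5.63, 5.72 and 5.94 in irradiated cultures at its brightest probe, against 6.22, 6.23 and 5.98 in controls. These groups did not overlap, but the closest pair, irradiated 3 and control 3, was near the same level, and the difference of -0.38 (SE 0.20, adjusted p = 0.525) shrank to -0.02 under quantile normalization. Its second probe, which lies just upstream, measured 4.21, 4.29 and 4.47 in irradiated cultures and 5.30, 4.90 and 4.56 in controls. That probe differed by -0.60 (SE 0.25, adjusted p = 0.519), with -0.37 under quantile normalization and -0.41 without control 1.

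Psmb7 measured 3.67, 3.72 and 3.94 in irradiated cultures, against 4.06, 4.16 and 3.97 in controls. Psmb10 measured 3.72, 3.87 and 4.03, against 4.21, 4.48 and 4.07. In both genes all irradiated values were below all controls, with irradiated 3 and control 3 the closest pair. Their differences were -0.29 (SE 0.20) for Psmb7 and -0.38 (SE 0.21) for Psmb10, and -0.09 and -0.18 under quantile normalization, and neither passed the test. Of the structural beta subunits, Psmb3 differed by -0.61 and Psmb4 by -0.48 at their brightest probes, or by -0.26 and -0.12 under quantile normalization. Without control 1 these differences were -0.35 and -0.39. Psmb2 had the highest difference of the core genes at 0.24, from 1.60, 1.46 and 1.25 in irradiated cultures and 0.84, 1.40 and 1.34 in controls. That difference came with control 1 as the lowest array by far. It was 0.06 without control 1 and -0.02 without the 2 arrays numbered 1.

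**Figure D2:**
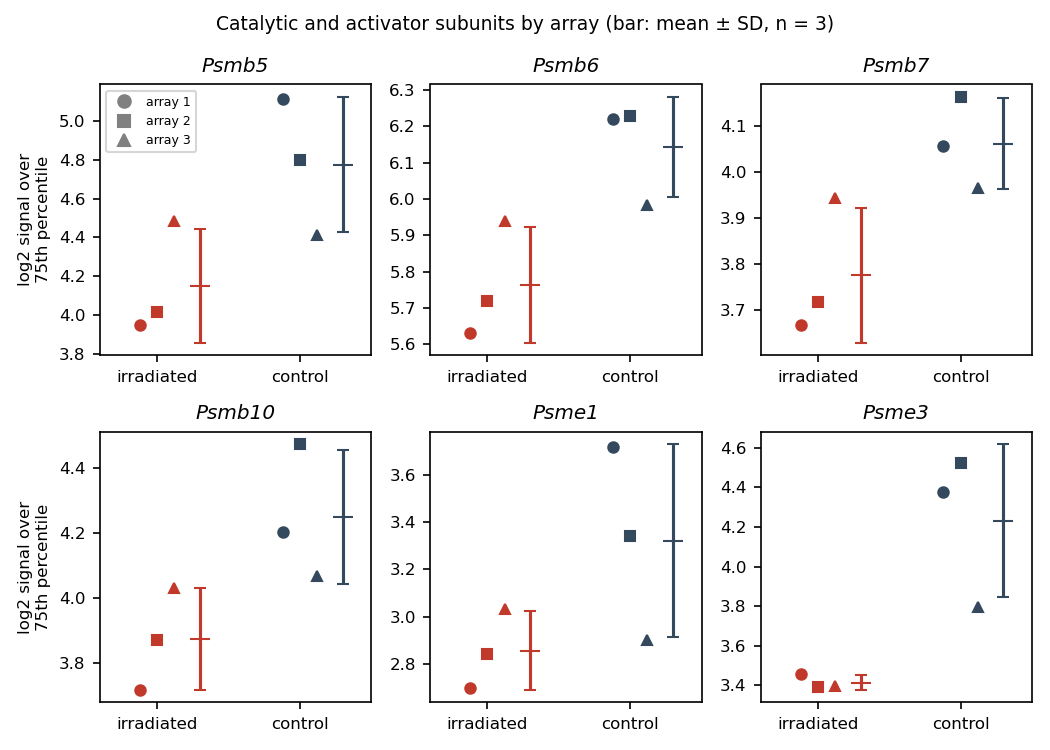
Log2 signal over the array's 75th percentile at the brightest probe of 4 catalytic and 2 activator subunits, 1 point per array, irradiated left and control right, each panel with its own vertical scale. Bars show the mean ± SD of 3 arrays and marker shapes the array number. Irradiated 3 (triangle) is the closest irradiated array to control 3 in the panels of Psmb5, Psmb6, Psmb7 and Psmb10, while the 3 irradiated values of Psme3 lie together below the controls.

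The 6 ATPase genes build the ring that unfolds proteins. At the brightest probe 5 lay below 0 and 1 above, with a median of -0.31, but under quantile normalization 2 lay below and 4 above, with a median of 0.05. Psmc3 measured 6.17, 6.33 and 6.60 at its downstream probe in irradiated cultures, against 6.81, 6.76 and 6.60 in controls. Irradiated 3 and control 3 were at the same level, and the difference of -0.36 (SE 0.21, adjusted p = 0.547) was 0.06 under quantile normalization. At the upstream probe Psmc3 measured 2.36, 2.88 and 2.36 in irradiated cultures, against 1.36, 2.37 and 2.54 in controls. There control 1 was far the lowest, and the difference of 0.45 was 0.08 without it. The middle probe differed by -0.27, or by -0.18 without control 1. Psmc4, another subunit of the ring, measured 3.34, 3.52 and 3.81 in irradiated cultures and 4.19, 3.90 and 3.66 in controls at its brightest probe. The groups overlapped, and the difference of -0.36 was -0.18 under quantile normalization and -0.22 without control 1. Psmc6 was the ATPase gene with the highest difference, 0.12, from 4.23, 4.48 and 4.62 in irradiated cultures and 4.04, 4.25 and 4.69 in controls, and without control 1 it was -0.02.

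Psmc2, an ATPase subunit, held the only subunit probe at which all irradiated values were above all controls, where 5.76% of all probes had that order. This upstream probe measured -1.22, -1.62 and -1.70 in irradiated cultures, against -2.71, -1.76 and -2.63 in controls, a difference of 0.85 (SE 0.31, adjusted p = 0.519) that was 0.77 under quantile normalization and 0.68 without control 1. The identifier of this upstream probe was not found in RefSeq, and whether it reads the same transcript as the downstream probe was not tested. The downstream probe of the same gene, which is far brighter, measured 4.57, 4.59 and 4.67 in irradiated cultures and 4.73, 4.92 and 4.79 in controls. There all irradiated values were below all controls, and the difference was -0.20, or 0.04 under quantile normalization.

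Among the 14 non-ATPase regulatory genes, 13 lay below 0 and 1 above, with a median of -0.14 that is close to the -0.13 of all genes. Under quantile normalization 6 lay below 0 and 8 above, with a median of 0.04. The 8 lid genes had a median of -0.14, the 3 base genes Psmd1, Psmd2 and Psmd4 -0.24, and the 3 assembly chaperones Psmd5, Psmd9 and Psmd10, which help to build the base and leave it, -0.13, but under quantile normalization these medians were 0.05, 0.04 and -0.11 in the same order. Psmd13, a lid subunit, had the lowest difference of the group. It measured 4.69, 4.70 and 4.95 in irradiated cultures, against 5.37, 5.32 and 5.03 in controls, without overlap, and differed by -0.46 (SE 0.21, adjusted p = 0.519), or by -0.22 under quantile normalization. Its upstream probe differed by 0.38, or by 0.17 without control 1.

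Psmd14, the lid enzyme that removes ubiquitin chains from the bound protein, measured 4.30, 4.33 and 4.26 in irradiated cultures, against 4.33, 4.34 and 4.43 in controls. Its groups were the tightest of the lid genes named and differed by -0.07 (SE 0.19), or by 0.14 under quantile normalization. An upstream probe of Psmd14 differed by 0.48, or by 0.27 without control 1, and a further one, at the most upstream position, was well above background on 2 irradiated arrays and on 0 control arrays. Psmd4, which binds ubiquitin chains, measured 5.18, 5.14 and 5.39 in irradiated cultures and 5.40, 5.62 and 5.40 in controls at its brightest probe. The groups touched without overlap there, with a difference of -0.24 that was 0.04 under quantile normalization, and its other probes differed by 0.03 and 0.43, or by -0.09 and 0.33 without control 1. Psmd5 was the gene of this group with the highest difference, 0.12, from 1.13, 1.34 and 1.29 in irradiated cultures and 0.90, 1.23 and 1.26 in controls, which overlapped.

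The 3 activator genes had a median difference of -0.46, and of -0.32 under quantile normalization, where 1 of the 3, Psme4, lay above 0. This median was that of Psme1, and without control 1 it was -0.26, against -0.34 for the core beta and -0.27 for the ATPase genes. Psme3, whose product opens the core in the nucleus, measured 3.46, 3.39 and 3.40 in irradiated cultures, against 4.38, 4.52 and 3.79 in controls. The irradiated values agreed within a narrow band, 3.41 ± 0.04, while the controls spread at 4.23 ± 0.39 (SD, n = 3 each), and the groups did not overlap. The difference of -0.82 (SE 0.25, 95% interval -1.4 to -0.24, adjusted p = 0.519) was the largest of the subunit genes in size and did not pass the test. It was -0.63 under quantile normalization, and between -1.04 and -0.67 when each array was left out in turn. The probe, shown above, holds TG 16 times in 60 bases, a count that 45 of the 40552 tested probes (0.111%) reach, against a median of 5 over all tested probes and 11 at the next highest subunit probe. At its other probe, upstream, Psme3 measured -0.21, -0.46 and -0.83 in irradiated cultures and -0.63, -0.61 and -0.48 in controls, with overlap and a difference of 0.08.

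Psme1, part of the activator that interferon induces, measured 2.70, 2.84 and 3.03 in irradiated cultures, against 3.72, 3.34 and 2.90 in controls. Control 3 lay among the irradiated values, and the difference of -0.46 (SE 0.26) was -0.26 without control 1. Psme4, a large single-chain activator, had 4 tested probes whose differences were 0.14, 1.44, 0.33 and -0.05 from upstream to downstream. The highest of these came from a dim probe, at -3.98, -4.04 and -4.11 in irradiated cultures and -7.24, -4.09 and -5.12 in controls, which was well above background on 3 irradiated and 2 control arrays. The same -7.24 recurs on control 1 at untested dim probes of Psmd3, Psmd11 and Psmd14, so it appears to be that array's floor and not a measured level. Without control 1 the difference was 0.57. At its brightest probe Psme4 measured 2.96, 3.18 and 3.26 in irradiated cultures and 3.15, 3.09 and 3.32 in controls, a difference of -0.05 with overlapping groups that was 0.10 under quantile normalization.

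Probes of the same subunit gene often differed in sign by their place along it. This comparison was chosen after the probes' values had been seen, so it is a description without a test. Among 19 subunit genes with at least 2 tested probes whose positions do not overlap, the difference at the most upstream probe exceeded that at the most downstream probe in 18, and Psmb6 was the exception. Over all 8719 genes with such probes, 64.3% had that order. The upstream probes of Psma3, Psmc2, Psmd1, Psmd7, Psme3 and Psme4 carry identifiers not found in RefSeq, as does the downstream probe of Psmc6. Whether these read the same transcript as the other probe of their gene was not tested. The median of the upstream minus the downstream difference was 0.56 in the subunit genes, from -0.22 for Psmb6 to 1.31 for Psmd3, and 0.16 over all 8719 genes. The upstream probes had a median difference of 0.18, with 16 of 19 above 0, and the downstream probes one of -0.24, with 1 of 19 above 0, but under quantile normalization these were 0.34 with 17 above 0 and 0.04 with 11 above 0. Without control 1 the upstream median was 0.07, with 13 of 19 above 0, and the downstream median -0.24, with 0 above 0. Under quantile normalization the upstream difference exceeded the downstream one in 16 of 19 genes, with a median gap of 0.38. Since the downstream probe was the brightest of its gene in 18 of the 19, the choice of the brightest probe was nearly a choice of the downstream one. Over all 8719 genes the downstream probe was the brightest in 6694, so the shares above do not compare like with like. In the subunit genes, place along the gene and signal level cannot be told apart. The 32 tested subunit probes that were not the brightest of their gene had 21 differences above 0 and 11 below, with a median of 0.12, with 26 above 0 under quantile normalization and 17 above 0, with a median of 0.04, without control 1.

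**Figure D3:**
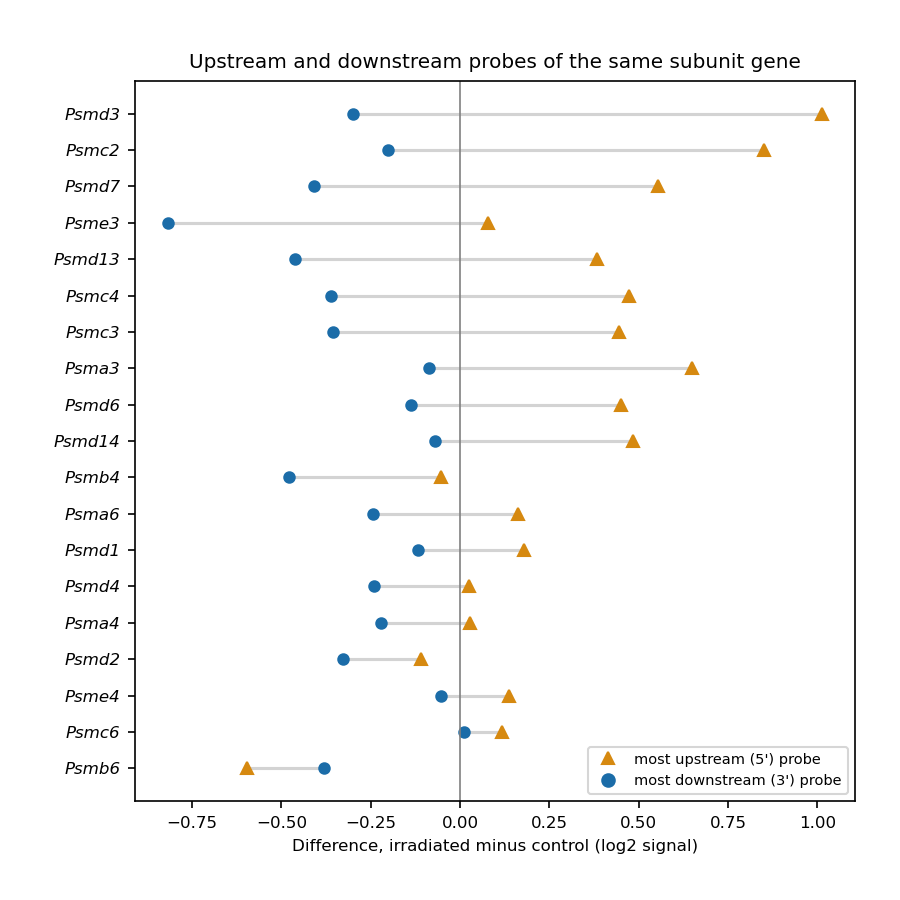
Difference in log2 signal, irradiated minus control, at the most upstream (triangle) and the most downstream (circle) probe of 19 subunit genes, sorted by the gap between them. The triangle lies right of the circle in 18 genes, with Psmd3 at the top and Psmb6, the exception, at the bottom.

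Psmd3, a lid subunit, had the widest gap. At the upstream probe it measured -0.06, 0.45 and -1.03 in irradiated cultures, against -2.05, -0.995 and -0.63 in controls, a difference of 1.01 (SE 0.48, adjusted p = 0.519) with overlapping groups that was 0.60 without control 1. At the downstream probe it measured 5.23, 5.23 and 5.43 in irradiated cultures and 5.88, 5.50 and 5.41 in controls, a difference of -0.30, or -0.16 without control 1. So control 1 was the lowest array at the upstream probe and the highest at the downstream one. Psmd6 showed a graded order, with differences of 0.45, 0.10 and -0.14 at the upstream, middle and downstream probes printed above. Without control 1 these were 0.06, -0.10 and -0.24, so the order held and the upstream value was near 0. At the upstream probe it measured 2.76, 3.04 and 2.69 in irradiated cultures and 1.60, 2.67 and 2.87 in controls, and at the downstream probe 4.87, 5.03 and 4.95, against 4.90, 5.10 and 5.28. Control 1 was again by far the lowest array at the upstream probe.

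This pattern was smaller without control 1 and kept its direction. The log2 ratio of upstream to downstream signal, relative to each gene's mean, had medians over the 19 genes of 0.31, 0.42 and 0.01 on irradiated arrays 1 to 3 and of -0.67, -0.02 and 0.06 on control arrays 1 to 3. Irradiated 3 was thus between control 2 and control 3, and control 1 was the lowest array for 13 of the 19 genes, where it was the lowest for 41.8% of all 8719. Without control 1 the upstream difference still exceeded the downstream one in 18 of 19 genes, against 66.3% of all genes, and the median gap was 0.32, against 0.13 over all genes. All 3 irradiated ratios were above all 3 control ratios in 6 of 19 genes, Psma6, Psmc2, Psmd14, Psmd6, Psmd7 and Psme3, where 12.0% of all genes had that order. Over all genes the ratio medians were 0.16, 0.15 and -0.03 on the irradiated arrays and -0.18, -0.003 and -0.06 on the controls. Control 1 also had the lowest 75th percentile of signal of the 6 arrays, whose part in these ratios was not tested.

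**Figure D4:**
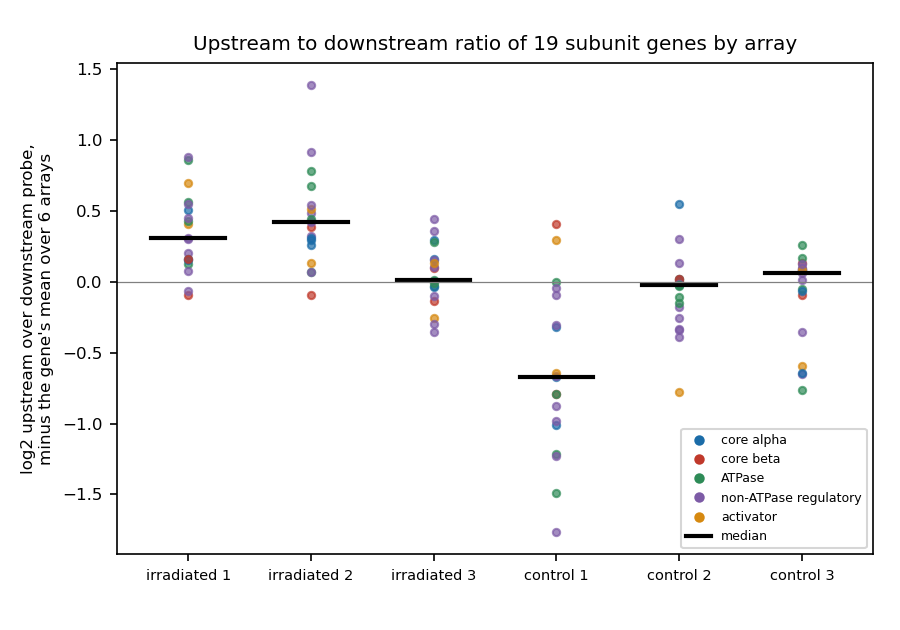
Log2 ratio of the most upstream to the most downstream probe of 19 subunit genes on each array, minus the gene's mean over 6 arrays, coloured by role, with the median as a bar. The medians are 0.31, 0.42 and 0.01 on the irradiated arrays and -0.67, -0.02 and 0.06 on the controls, so control 1 lies lowest and irradiated 3 lies within the range of control 2 and control 3.

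AATAAA, searched on the probe's own strand, was found in 10 of the 71 tested subunit probes (14.1%), and in 10.4% of all tested probes. Of these 10 subunit probes, 9 lay below 0 with a median difference of -0.30, while of the other 61, 37 lay below 0 with a median of -0.07. The motif was in 6 of the 19 most downstream probes (31.6%, against 17.7% over all genes) and in 1 of the 19 most upstream ones (5.26%, against 4.65%). That upstream probe was the one of Psmc2 with a difference of 0.85. Over all 40552 probes, 2990 of the 4208 with AATAAA lay below 0, with a median of -0.15. Of the 36344 without it, 19707 lay below 0, with a median of -0.04. These counts are under the 75th percentile scaling and describe letters in a probe, not where a transcript ends.

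The promoters were read for the core of the element that Nfe2l1 binds, TGACNNNGC on either strand, in windows from 250 bases before to 50 bases after each gene's start (RefSeq, GRCm38.p6). Of 35 windows of 33 subunit genes, 6 held it (17.1%), and so did 12.4% of all 32851 windows. Those 6 belong to Psmb5, Psmb6, Psmc6, Psmd12, Psmd9 and Psme4. Under the 75th percentile scaling, 5 of these 6 genes lay below 0 at their brightest probes, with a median difference of -0.14, and 25 of the 26 tested genes without it did, with a median of -0.24. The match is in capitals in the 100 bases before the start of both catalytic genes that hold one, beginning 47 bases before it in Psmb5 and 9 before it in Psmb6:
Psmb5 promoter, chr14:54617996-54618095, minus strand: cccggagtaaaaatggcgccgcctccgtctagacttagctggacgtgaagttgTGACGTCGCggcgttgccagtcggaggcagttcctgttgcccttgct
Psmb6 promoter, chr11:70525257-70525356, plus strand: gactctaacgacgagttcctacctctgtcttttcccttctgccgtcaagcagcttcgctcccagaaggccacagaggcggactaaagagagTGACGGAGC
A match is a description of letters in this window, and nothing follows from it about the factor.

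The other genes of the pathway, a list of 33 that covers assembly factors, proteasome-bound enzymes, shuttle proteins, ubiquitin genes and the segregase Vcp with its cofactors, had 32 members on the array and 31 tested. Limma called 0 of the 31 at an adjusted p under 0.05, and 0 reached an unadjusted p under 0.05 in either direction, where 2.39% of all genes did so higher and 6.46% lower in irradiated cultures. At their brightest probes 9 lay above 0 and 22 below, with a median of -0.22, but under quantile normalization 16 lay above 0 and 15 below, with a median of 0.003. All irradiated values were below all controls in 8 of them and above in 0, where 12.2% and 3.85% of all genes had that order.

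Ubb, a ubiquitin gene, measured 8.17, 8.31 and 8.56 in irradiated cultures, against 9.14, 9.02 and 8.51 in controls. Irradiated 3 lay just above control 3, so the groups overlapped, and the difference was -0.54 (SE 0.25, adjusted p = 0.519), or -0.03 under quantile normalization. Nploc4, a cofactor of Vcp, differed by -0.55 and Shfm1, a small lid protein, by -0.45, or by -0.44 and -0.10 under quantile normalization. Nfe2l1, the inducer of subunit genes, measured 4.67, 4.38 and 4.68 in irradiated cultures and 5.21, 4.82 and 4.79 in controls. It differed by -0.37 without overlap, or by -0.12 under quantile normalization, and did not pass the test. Pomp, the chaperone with which new cores are assembled, differed by -0.33, or by 0.06 under quantile normalization.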

How the data were processed

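RNA from 3 irradiated and 3 control cultures was measured on 6 Agilent 1-colour arrays. Per the submitters' processing notes, the spot intensity values the authors deposited come from Agilent Feature Extraction, version 10.7.1.1. Per the file headers, the processed intensity has background subtracted and spatial trends removed within each array, and no normalization between arrays. The multiplicative trend fit was 0 on control 1 and 0.013 to 0.038 on the others, so it is not known whether the multiplicative step was applied to control 1. A second file deposited by the authors holds log2 expression for the same arrays. Its values show that it is quantile normalized, with column medians of 5.91, not centred per gene and in the direction of the scanner signal, with a rank correlation of 0.997 for control 1 and about 1 for the others. No source used here names the tool behind it.

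Here log2 processed signal had spots marked as outliers left out, replicate spots of a probe averaged, and the 75th percentile of an array's non-control probes subtracted. Probes well above background on at least 3 of 6 arrays were fitted with limma 3.58.1 (lmFit and eBayes, R 4.3.3), irradiated minus control, with Benjamini-Hochberg adjustment over 40552 probes and calls at an adjusted p under 0.05. Only the limma fit was tested on simulated data, not the scaling or the filter. The changes planted there were larger than any subunit difference here, so power at the reported sizes was not tested. The brightest tested probe stands for a gene, by mean over all arrays. Levels are compared between probes only within a gene, for brightness and for upstream to downstream ratios, and not between genes. All 76 probes keep the array's gene names: 62 accessions were found in RefSeq, each with the same symbol. The members and lists were chosen with earlier results of these data known. Genes given with all 6 values are, in each role group, those with the smallest p and the largest difference in each direction, the catalytic subunits, Psmd14, Psmd4, the activators, Psma8, and up to 4 genes with 3 or more probes of both signs. Psma6, Psmd3, Psmd6 and Psmc2 were added after their values were seen. From the pathway list the genes with the smallest p, Nfe2l1, Pomp and Ubb are named, and some results on that list are not reported here. Sequences are those of the scanner files and of RefSeq (GRCm38.p6). Alternatives were quantile normalization, the deposited table, normexp (offset 50), no filter, outlier spots kept, a replicate block, each array left out, both arrays numbered 1 left out, and the mean of a gene's probes.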

Additional observations from a re-analysis of the deposited data

How the results depend on the processing

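No subunit probe and no pathway gene was called under the alternatives in which probes were tested, which leaves out the mean of a gene's probes, and over all probes 4 were called under quantile normalization and 4 in the deposited table, against 0. The medians of the gene groups depended on the scaling and on the probe that stands for a gene, and the cause was not tested. Under quantile normalization, with or without the replicate block, the medians were 0.0360 for all subunit genes, 0.0718 for core alpha, -0.11 for core beta, 0.0455 for ATPase and 0.0445 for non-ATPase regulatory genes. In the deposited table they were 0.0369, 0.0718, -0.11, 0.0463 and 0.0452 in the same order of groups. With the mean of all probes of a gene the median was -0.0811 for all subunit genes, -0.12 for core alpha, -0.0020 for ATPase and -0.0345 for non-ATPase genes. Normexp gave -0.16 for core alpha, and leaving out both arrays numbered 1 gave -0.19 for the activators. Leaving out each array in turn, the median ran from -0.31 to -0.21 over all subunit genes, -0.25 to -0.20 for core alpha, -0.46 to -0.30 for core beta, -0.44 to -0.20 for ATPase, -0.18 to -0.13 for non-ATPase and -0.67 to -0.26 for activator genes. The count of subunit genes lower in irradiated cultures was 18 under quantile normalization and 26 with the mean of all probes, against 35, and 32 to 36 when an array was left out.

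Single genes turned sign under quantile normalization, with or without the block: Psmc3 to 0.0550, Psmd14 to 0.14, Psmd4 to 0.0351, Psme4 to 0.10 and Psma3 to 0.19, with 0.0557, 0.14, 0.0360, 0.10 and 0.19 in the deposited table. With the mean of all probes Psmc4 came to 0.0561, Psmd14 to 0.21, Psmd4 to 0.0708, Psme4 to 0.46 and Psma3 to 0.14. Without both arrays numbered 1, Psmb2 came to -0.0175 and Psme4 to 0.0152. With 1 array left out, Psmb2 ran from 0.0648 to 0.35, Psmc6 from -0.0235 to 0.30, Psme4 from -0.11 to 0.0333, Psma8 from -0.61 to 0.24 and Psma3 from -0.18 to 0.0266. Of these, Psmc6 and Psma8 turned sign without control 1, Psma8 also without irradiated 3 (0.0911), Psme4 without irradiated 1 or without control 3 (0.0136), and Psma3 without control 3.

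The arrays share numbers 1 to 3 between the groups. Deviations of same-numbered arrays from their group means correlated by 0.46, 0.33 and 0.0857 over all probes and by 0.53, 0.42 and 0.22 over genes at their brightest probe. Over genes every irradiated array correlated best with the control of its own number. Control 3, however, correlated better with irradiated 2 (0.33) than with irradiated 3 (0.22). Over probes irradiated 2 correlated best with control 3, and irradiated 3 with control 2. Summed oligodendrocyte markers were 116, 29.7 and 65.4 on irradiated arrays 1 to 3, against 129, 23.9 and 78.1 on control arrays 1 to 3. The labels do not say what a number stands for, so whether the cultures are paired is not settled, and the block is given as an alternative. With the replicate block 0 subunit probes were called, and 2 rather than 4 had an unadjusted p under 0.05. Slide and scan could not be fitted as blocks, since all 6 arrays share 1 slide and 1 scan. Psma8, Psmb11 and the dim probes of Psme4 and Psmd14 are limited by signal over background.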
